A study of Mus musculus with 6 samples.

Results

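The genes described here encode the nuclear subunits of the mitochondrial respiratory chain and of ATP synthase, together with the complex I assembly factors of the Ndufaf family. They are the rows whose Ensembl identifier maps in the GENCODE mouse annotation to a protein-coding symbol that begins with Nduf, Uqcr, Atp5 or Cox followed by a digit from 4 to 8, or that is Sdha, Sdhb, Sdhc or Sdhd. The rule used no measured value and took 98 of the 56953 rows of the table. These were 38 subunits of complex I (NADH dehydrogenase), 8 complex I assembly factors, 4 subunits of complex II (succinate dehydrogenase), 8 of complex III (the cytochrome bc1 complex), 21 of complex IV (cytochrome c oxidase) and 19 of ATP synthase. Complex IV was taken to include Ndufa4, its relative Ndufa4l2, the supercomplex factor Cox7a2l and Cox5b-ps, an intronless copy that is annotated as coding. ATP synthase was taken to include its inhibitor Atp5if1, and Atp5po stands in the table under 2 identifiers.

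Complexes I and II take electrons from NADH and from succinate and hand them to ubiquinone, complex III passes them to cytochrome c, and complex IV passes them to oxygen. Complexes I, III and IV pump protons across the inner mitochondrial membrane, and ATP synthase lets them flow back through its membrane rotor while its catalytic head makes ATP. Most of the subunits are encoded in the nucleus and imported, and they are assembled with a smaller set made on the mitochondrial genome.

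RNA was sequenced from cultured mouse embryonic fibroblasts (MEFs), connective tissue cells grown from embryos, kept in DMEM with fetal bovine serum. There were 3 libraries labelled WT and 3 labelled GαqKO, and the study describes the second genotype as cells lacking both Gαq and Gα11, subunits of the G proteins that activate phospholipase Cβ. No second line of either genotype is given, so genotype and cell line cannot be told apart, and no treatment, time or age is given for either. The comparison asked how the RNA levels of the respiratory chain differed between the 2 genotypes.

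In all 6 libraries the normalized counts (gene counts divided by 1 size factor per library) summed to between 11392429 and 11483486. Gnaq, the gene of Gαq, was not lower in the libraries labelled GαqKO (1691 ± 48.5 in WT and 1926 ± 36.0, mean ± SD, n = 3 each). It was called higher, at a log2 fold change of 0.19 (limma adjusted p = 0.00212). Gna11, by contrast, went from 2148 ± 29.0 to 452 ± 28.7, so every direction below is drawn from the labels. The fibroblast markers Col1a1, Col1a2, Col3a1, Pdgfrb, Vim and Fn1 were high in every library, while Lum was at 4.0 counts or fewer throughout. Col1a1 had means of 16671 in WT and 5774.5 in the libraries labelled GαqKO and was called lower, at a log2 fold change of -1.53. Fn1, Col1a2, Vim and Col3a1 were also called lower, at -0.73, -0.36, -0.32 and -0.18. Pdgfrb was called higher, by 0.23. Pdgfra, Dcn and Thy1, also fibroblast markers, had means of 19.6, 32.1 and 0.7 counts in WT and 2319.7, 1663 and 64.9 in the libraries labelled GαqKO, where all 3 were called higher (largest limma adjusted p = 2.2e-07). Of the markers of other cell types, the 6 epithelial ones summed to 515 to 541 counts per WT library and 10.1 to 23.1 per library labelled GαqKO, nearly all of the WT sum Krt14 (means of 258 and 1.1) and Cdh1 (238 and 8.0), both called lower, with Krt5 at 1.0 or fewer. The 9 striated muscle markers summed to 743 to 807 and 16.2 to 25.2, nearly all of it Tnnt2, with Myod1, Myog, Ckm and Myh1 at 1.0 or fewer. The 5 brown fat markers summed to 1.0 to 16.7 and 76.5 to 106, nearly all of it Prdm16, with Ucp1 at 1.0 or fewer. The 5 endothelial and the 6 haematopoietic markers summed to 12.6 to 26.6 and 59.2 to 104 counts over all libraries, with Pecam1 at 13.6 or fewer and Ptprc at 3.1 or fewer. Most of the haematopoietic sum was Cd68, with means of 93.0 in WT and 66.9 in the libraries labelled GαqKO. It was called lower, at a log2 fold change of -0.48 (limma adjusted p = 0.0296). The part of these differences in the results below was not tested.

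Most respiratory chain genes differed little between the genotypes, and those that did were split in direction. Of the 98 rows, 87 entered the test, with 10 normalized counts or more in 3 or more libraries, 5 were under this filter and 6 were listed at 0 in all libraries. The call threshold was an adjusted p of 0.05 (limma, Benjamini-Hochberg over all genes tested). With it 17 genes (19.5%, beside 31.8% of all genes tested) were called higher in GαqKO, 14 (16.1%, beside 34.1%) were called lower, and 56 were not called. The calls together were 35.6% of the genes that entered the test, beside 65.8% of all 14096 genes tested. A log2 fold change over 1 or under -1 as well was seen for 3 genes that were higher and 1 that was lower, 4.6% beside 20.7% of all genes. The values of the 2 genotypes did not overlap for 35 of the 87 (40.2%, beside 69.6% of all genes tested). The median log2 fold change was -0.01 for the respiratory chain and -0.01 for all genes tested, and the median size of the change, whatever its direction, was 0.19 and 0.39. In bulk RNA, fewer cells of a kind and less RNA per cell cannot be told apart. The study calls the libraries of a genotype biological replicates, while the labels do not say whether they came from separate cultures, and the p-values measure the spread between these libraries. With DESeq2 on the reads recovered for 5 libraries the calls were 11 higher and 9 lower, beside 28.9% of all 25619 genes it fitted. These were all genes with any read, without the filter above, so the 28.9% and the 65.8% are shares of unlike sets. Cox5a, Cox6b1, Cox6c, Cox7b, Ndufab1, Ndufaf1, Ndufb10, Ndufs1, Sdhd, Uqcr11 and Atp5mc3 were no longer called (adjusted p from 0.0551 to 0.22).

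**Figure D1:**
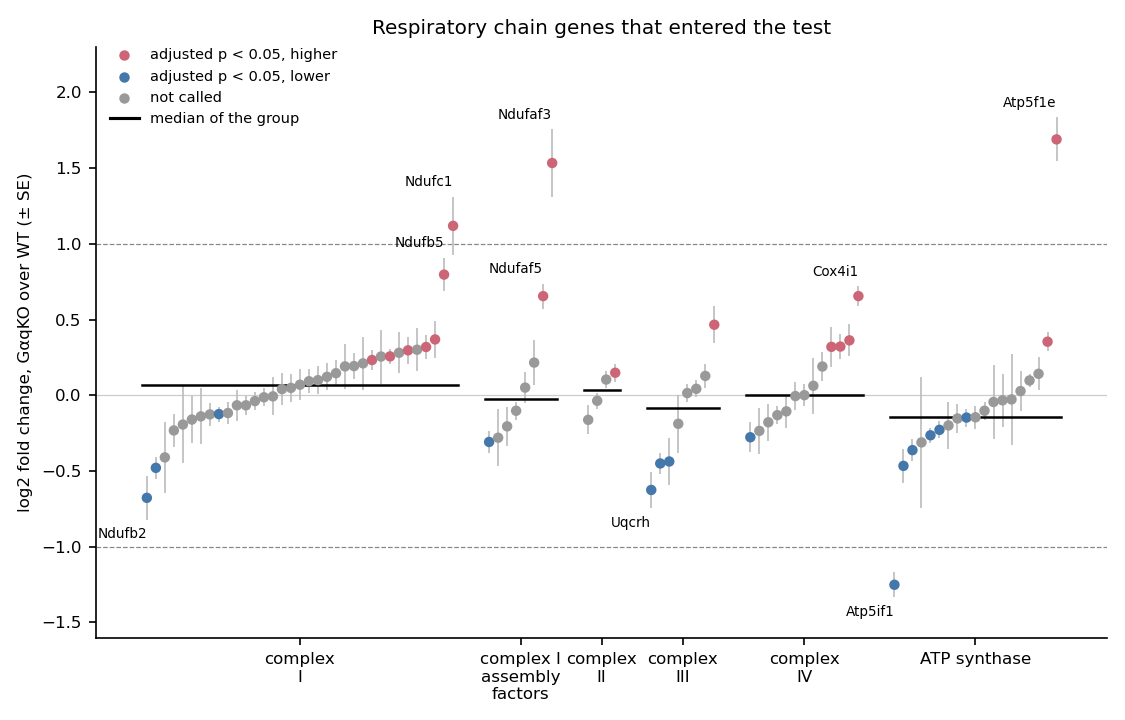
Log2 fold change (libraries labelled GαqKO over WT, y axis, on the log2(normalized count + 1) scale) of the 87 respiratory chain genes that entered the test, ordered by value within each complex; points are fitted values, bars are standard errors, black lines are medians and dashed lines mark 1 and -1. Most points lie near 0, 3 genes lie above 1 (Atp5f1e, Ndufaf3 and Ndufc1) and 1 below -1 (Atp5if1), and ATP synthase has the lowest median, at -0.15.

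Called genes were spread over all 5 complexes. In every complex, and among the assembly factors, the share called was below the 65.8% of all genes tested (limma). With so few calls in each, the split between higher and lower describes only the genes listed. Complex I had 7 higher and 3 lower of 35 tested, with a median log2 fold change of 0.07, and its assembly factors 2 higher and 1 lower of 8, with a median of -0.03. Complex II had 1 higher of 4 (median 0.03), complex III 1 higher and 3 lower of 8 (median -0.09) and complex IV 4 higher and 1 lower of 13 (median 0.00). ATP synthase had 2 higher and 6 lower of 19, with a median of -0.15, and 14 of its 19 values were negative. No test was made of the difference between complexes. The median of complex I was 0.13 without WT replicate 2, that of complex III was -0.18 without WT replicate 3, and that of complex IV was 0.07 without WT replicate 1 and -0.09 without WT replicate 3.

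Added up over its rows, each complex had a similar number of counts in the 2 genotypes except ATP synthase and complex IV. ATP synthase summed to 20475, 20304 and 18570.0 normalized counts in the WT libraries and to 17815, 17953 and 17408 in those labelled GαqKO. Every GαqKO sum was thus below every WT sum, at 89.6% of the WT mean. With the intronless copies described further on, the sums overlapped, at 94.5%. Without the copies the mean fell by 2058 counts, while Atp5f1b alone fell by 1200.9. Complex IV summed to 6822, 6520.0 and 6006 in WT and to 6889, 6872 and 7025 in the libraries labelled GαqKO. Its sums did not overlap either, at 107% of the WT mean (with the intronless copies described further on they did, at 104%), and the rise of 616.0 counts in Cox4i1 was larger than the rise of the whole sum, 479. The sums of complexes I, II and III and of the assembly factors overlapped. Together the 98 rows held 0.429% to 0.475% of the normalized counts of a library.

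**Figure D2:**
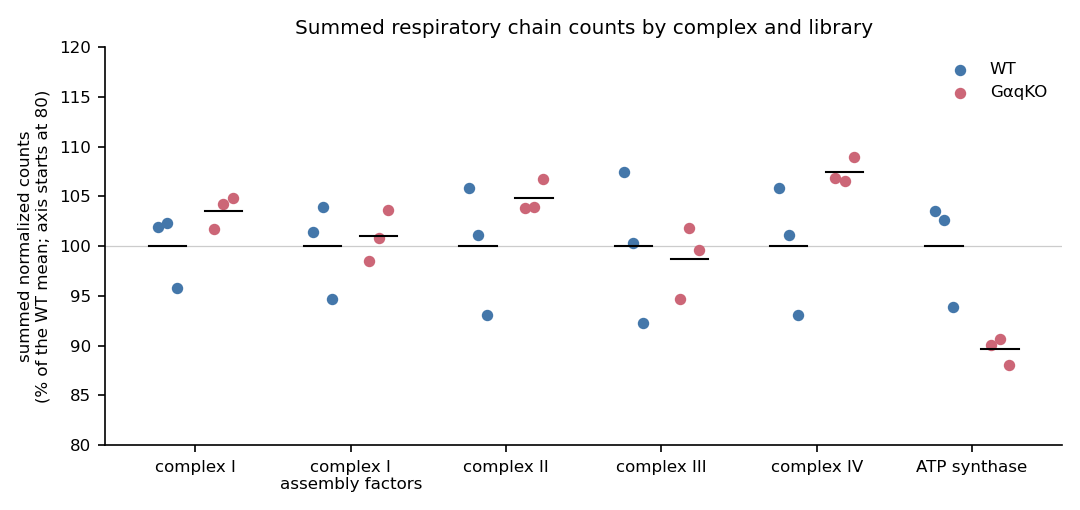
Summed normalized counts of the rows of each complex in each library, as a percent of that complex's WT mean (y axis, which starts at 80); points are single libraries and lines are means of 3. The libraries labelled GαqKO lie at 88.0 to 90.7 for ATP synthase, below all WT libraries, and at 106.5 to 108.9 for complex IV, above them. Intronless copies are not included here, and with them the genotypes overlap for both complexes.

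ATP synthase held both the largest rise and the largest fall among the respiratory chain genes. Atp5f1e (ENSMUSG00000016252.8; chromosome 2, 174302861 to 174305906 in GRCm39, minus strand) encodes the epsilon subunit, a small part of the central stalk that turns inside the catalytic head. It had 55.3, 53.4 and 55.0 normalized counts in the WT libraries and 195, 155 and 187 in those labelled GαqKO. The WT values lay within 2 counts of each other and every GαqKO value was more than 2 times higher. The means were 54.6 ± 1.0 and 179 ± 21.4 (SD, n = 3 each), with a log2 fold change of 1.69 (SE 0.15, limma adjusted p = 2e-07). The canonical transcript of Atp5f1e has 3 exons in 429 bases, the longest of 150 bases. The aligner used does not split reads over introns, and the part of this in the low counts of Atp5f1e was not tested. Atp5if1 (ENSMUSG00000054428.13; chromosome 4, 132257215 to 132262823 in GRCm39, minus strand) encodes the inhibitory factor that stops the enzyme from running backwards and burning ATP. It had 747, 668 and 608 normalized counts in WT and 294, 272 and 280.0 in the libraries labelled GαqKO. The lowest WT value was more than 2 times the highest GαqKO value. The means were 674 ± 69.7 and 282 ± 11.2 (SD, n = 3 each), with a log2 fold change of -1.25 (SE 0.083, limma adjusted p = 1.28e-08). Of the exon length of Atp5if1, 59.6% lies inside the span of Gm12999, which had 3.5 counts or fewer in every library.

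The other parts of the enzyme moved less. In the catalytic head, Atp5f1b, the beta subunit that carries the catalytic sites, had 7417, 7372 and 6706 counts in WT and 6039.8, 6144 and 5708 in the libraries labelled GαqKO. Its values did not overlap, with a log2 fold change of -0.26 (SE 0.048, limma adjusted p = 0.000286). The alpha subunit Atp5f1a, its partner in the head, had means of 3239 ± 148 and 3465 ± 95.9 (SD, n = 3 each), and its log2 fold change of 0.10 was not called (limma adjusted p = 0.074), but it was without WT replicate 2 (0.129, adjusted p = 0.046) and in edgeR (0.133, adjusted p = 0.0407). The other stalk subunits were lower, Atp5f1c (gamma) at a log2 fold change of -0.36 and Atp5f1d (delta) at -0.23, with adjusted p of 0.000725 and 0.00261 (limma). The 3 genes Atp5mc1, Atp5mc2 and Atp5mc3 encode the same mature c subunit of the rotor ring. Atp5mc1 had 347, 312 and 252 counts in WT and 219.7, 214 and 219.5 in the libraries labelled GαqKO, values that did not overlap. Its log2 fold change was -0.47 (limma adjusted p = 0.00228), and those of Atp5mc2 and Atp5mc3 were -0.15 and -0.15. Atp5mc2 was called only without GαqKO replicate 1 (-0.244, limma adjusted p = 0.0411). Atp5mc3 was called (limma adjusted p = 0.0421), but its adjusted p was 0.149 at most when a library was left out, and the call was lost without WT replicate 1 or 2 or without GαqKO replicate 1 or 3. In the peripheral stalk, Atp5pb was the member that rose, from 574 ± 27.3 to 733 ± 16.7 counts (SD, n = 3 each), with a log2 fold change of 0.35 (limma adjusted p = 0.000159). None of the 5 genes of the membrane part (Atp5me, Atp5mf, Atp5mg, Atp5mj and Atp5mk) was called, with log2 fold changes from -0.20 to 0.14. Of the exon length of Atp5mk and Atp5mj, 100% and 87.4% lies inside the spans of other genes. Intronless copies held 79.7% of the sum with Atp5mk in WT. Atp5me had only 33.0 to 57.4 counts in any library (SE 0.24).

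**Figure D3:**
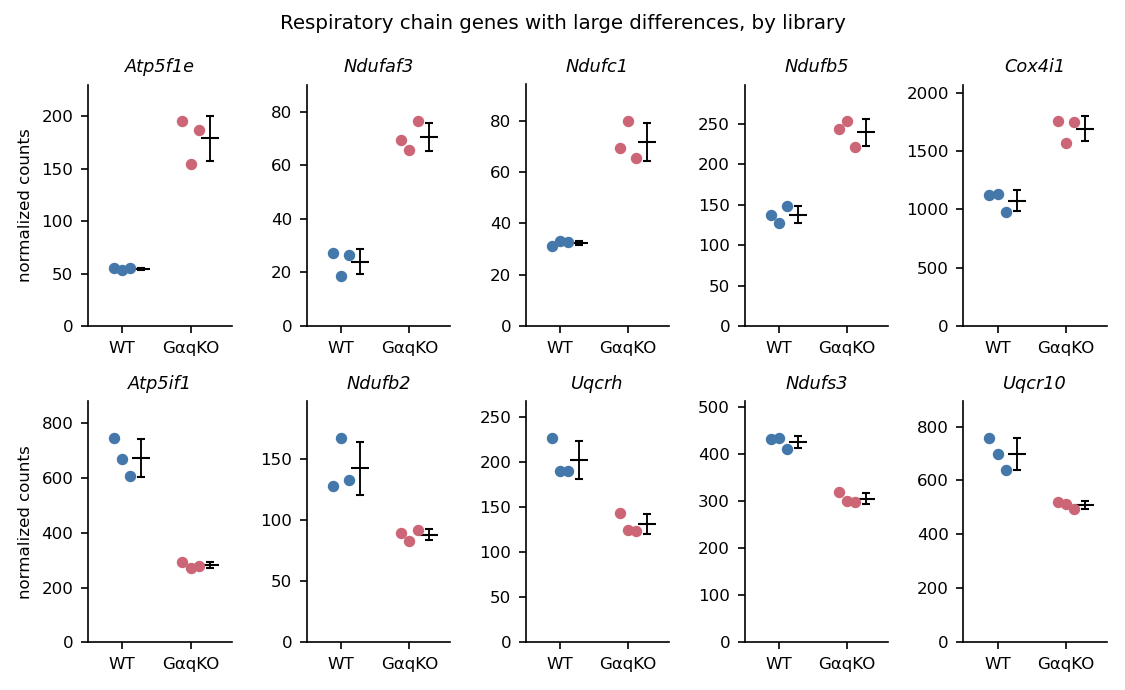
Normalized counts (y axis, from 0) of 10 respiratory chain genes in each library; points are the 3 WT and 3 GαqKO libraries, and horizontal marks with bars are the mean ± SD. In each panel the 2 genotypes do not overlap: the upper row holds genes that were higher in the libraries labelled GαqKO and the lower row genes that were lower.

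Many reads that match respiratory chain genes were counted on intronless copies elsewhere in the genome. Such processed copies arise when a spliced messenger RNA is copied back into the genome, so they carry the exons joined and no introns. A search of the coding sequences against annotated pseudogenes and Cox5b-ps (at least 90% identity over at least 80% of the coding sequence) found 57 copies of 30 of the genes. Of these copies 31 were listed at 0 and 15, each with 1 annotated exon, entered the test. The copies held 14828 to 17777 normalized counts per library, 23.2% to 24.7% of the counts on genes and copies together, with the ranges of the 2 genotypes overlapping. For 10 genes the copies held more counts than the gene's own row in WT. The strand setting and the treatment of reads with several matches are not given in the sources used here, and how many of these reads came from the parent genes was not tested.

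A read that spans an exon junction of such a gene has a continuous match on its copy, as the following stretches show. Each is 60 bases of coding sequence in GRCm39 across an exon junction of the gene, on the gene's strand, with the first bases of the next exon in capitals. In the Atp5pb and Atp5po windows the copies Atp5pb-ps and Gm5436 hold the same 60 bases without a break, with 0 mismatches. In the Uqcrh window the copy Uqcrh-ps2 differs at 3 bases, and its own sequence is given under that of the gene. The Atp5pb exons end at chr3:105861334-105861363 and resume at chr3:105859003-105859032 (minus strand), and the copy lies at chr11:55009281-55009340 (minus strand). The Atp5po exons end at chr16:91723741-91723770 and resume at chr16:91723430-91723459 (minus strand), and the copy lies at chr12:84305390-84305449 (minus strand). The Uqcrh exons end at chr4:115927060-115927089 and resume at chr4:115924340-115924369 (minus strand), and the copy lies at chr2:118838896-118838955 (plus strand).
Atp5pb: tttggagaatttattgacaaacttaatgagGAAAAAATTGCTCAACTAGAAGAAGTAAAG
Atp5po: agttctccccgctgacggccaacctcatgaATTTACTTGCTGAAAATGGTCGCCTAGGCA
Uqcrh: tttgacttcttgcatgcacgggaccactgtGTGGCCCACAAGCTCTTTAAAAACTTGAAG
Uqcrh-ps2: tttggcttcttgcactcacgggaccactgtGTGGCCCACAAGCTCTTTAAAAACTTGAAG

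The split between gene and copy was most uneven for Atp5po, which encodes the stalk subunit that holds the catalytic head in place (OSCP). Its row had 23.9 ± 4.9 normalized counts in WT and 23.9 ± 6.8 in the libraries labelled GαqKO (SD, n = 3 each), whereas Gm5436 had 5363, 4992 and 4622 and 4665, 4683 and 4661, 99.5% of the summed counts in both. Neither the Atp5po row nor Gm5436 was called, and the summed log2 fold change was -0.09 (limma adjusted p = 0.118). Of the exon length of the Atp5po row, 93.8% lies inside the spans of other identifiers, among them the second Atp5po row. The part of this overlap in its low counts was not tested. Atp5pb-ps had 3249.5, 3105 and 2801 counts in WT and 4166, 4164 and 3945 in GαqKO, which made up 84.2% and 84.8% of the sum with Atp5pb. The copy was higher in every GαqKO library, with a log2 fold change of 0.43 (SE 0.054, limma adjusted p = 9.61e-06) beside 0.35 for the gene. The copies of Atp5mc1 held 91.2% and 92.7% of the sum, and with them added the log2 fold change of Atp5mc1 was -0.21 in place of -0.47 (limma adjusted p = 0.0106). Uqcrh-ps2 was lower, with a log2 fold change of -0.71 (SE 0.101, limma adjusted p = 2.83e-05), beside -0.63 for Uqcrh. Gm13186, the copy of Ndufb2, was lower, at -0.68, and the gene at -0.68. Over the 15 genes with a copy in the test, the sign of the copy and of the gene was the same for 12, which is a description, since reads may be shared between them. With the copies added, 31 genes were again called and all 31 were the same genes, and the sum of ATP synthase was 94.5% of the WT mean, with 30634 to 34730.0 counts in WT and 30693 to 31693 in the libraries labelled GαqKO. These ranges overlapped, unlike those of the genes alone. Complex IV with its copies ranged from 6922 to 8079 counts in WT and from 7826 to 8019 in GαqKO, so that its ranges overlapped as well.

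**Figure D4:**
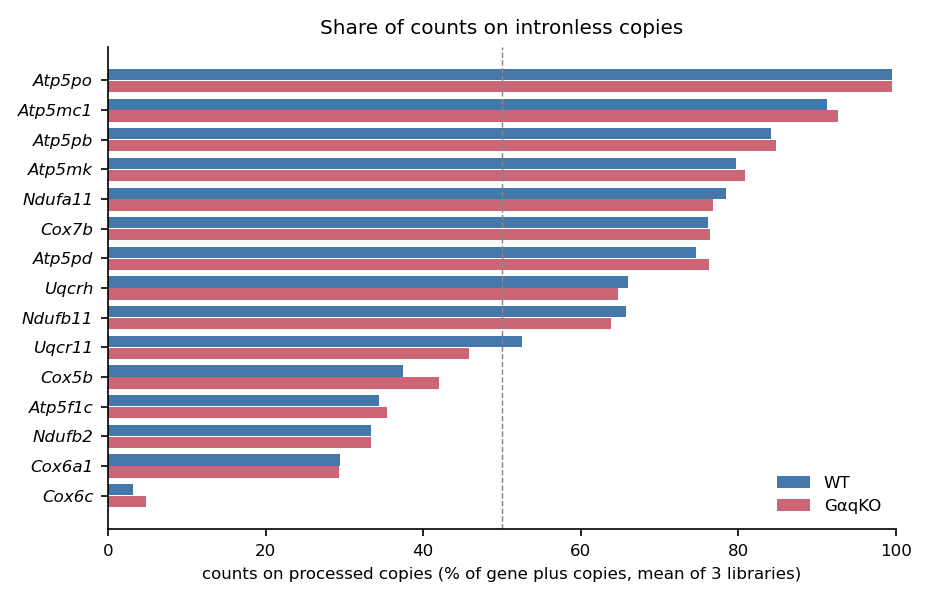
Share of normalized counts on intronless copies, as a percent of the counts on the gene and its copies together (x axis, mean of 3 libraries per genotype), for the 15 respiratory chain genes with a copy that entered the test; the dashed line marks 50. In WT the share is above 50 for 10 genes, up to 99.5 for Atp5po, and the genotypes differ most for Uqcr11 (52.6 in WT and 45.8 in GαqKO, on either side of the line) and Cox5b (37.5 and 42.0).

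In complex I the largest differences were in accessory subunits. Ndufc1 (ENSMUSG00000037152.12; chromosome 3, 51309273 to 51316412 in GRCm39, minus strand), a small accessory subunit of the membrane arm, had 31.3, 33.0 and 32.6 counts in WT and 69.5, 79.8 and 65.5 in the libraries labelled GαqKO. The values of the 2 genotypes were far apart, though both were low. The log2 fold change was 1.12 (SE 0.19, limma adjusted p = 0.00016). Ndufb5, another membrane arm subunit, had 137, 127 and 149 counts in WT and 244, 253 and 222 in the libraries labelled GαqKO. All its GαqKO values were above the highest WT value, a log2 fold change of 0.80 (SE 0.11, limma adjusted p = 2.24e-05). Ndufb9 was the next largest rise (0.37, adjusted p = 0.015 from limma), but the call was lost without WT replicate 3 (adjusted p = 0.0511) or GαqKO replicate 2 (adjusted p = 0.061). In the other direction, Ndufb2 had 127, 167 and 132 counts in WT and 89.2, 83.2 and 91.6 in the libraries labelled GαqKO. Its GαqKO values were close together and below all WT values, a log2 fold change of -0.68 (SE 0.15, limma adjusted p = 0.000976). Ndufb10 was called at a log2 fold change of -0.12 (limma adjusted p = 0.0424), and without any 1 library its adjusted p was 0.0515 to 0.145. Ndufc2, the partner of Ndufc1 in the membrane arm and the complex I gene with the highest level per kb of transcript, rose from 1139 ± 17.8 to 1362 ± 41.7 counts (SD, n = 3 each), with a log2 fold change of 0.26 (limma adjusted p = 0.000338).

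Among the nuclear core subunits of the peripheral arm, which hold the flavin and the iron-sulfur clusters that carry electrons from NADH, 1 was higher and 1 lower. Ndufs1, the largest of them, had 241, 230.2 and 246 counts in WT and 304, 273 and 306 in the libraries labelled GαqKO. The ranges did not overlap, and the log2 fold change was 0.30 (limma adjusted p = 0.00942). Of the exon length of Ndufs1, 87.2% lies inside the spans of other genes. Ndufs3 had 432, 434 and 411 counts in WT and 318, 299.5 and 298 in the libraries labelled GαqKO, each of the latter below every WT value. Its log2 fold change was -0.48 (SE 0.074, limma adjusted p = 6.5e-05). Ndufv1, which binds NADH and the flavin, had means of 1021 ± 48.0 and 1013 ± 57.9 (SD, n = 3 each), and Ndufv1, Ndufv2, Ndufs7 and Ndufs8 were not called, with log2 fold changes of -0.01, 0.07, -0.23 and 0.05. Ndufs7 was called without WT replicate 3 (-0.331, limma adjusted p = 0.0116). None of the 9 accessory subunits of the peripheral arm was called either, at log2 fold changes from -0.41 to 0.30. The acyl carrier protein Ndufab1, which serves complex I and mitochondrial fatty acid synthesis, was higher by 0.32 (limma adjusted p = 0.00239).

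Among the complex I assembly factors, which build the complex and leave it, Ndufaf3 (ENSMUSG00000070283.5; chromosome 9, 108442729 to 108444642 in GRCm39, minus strand) rose most. It had 27.1, 18.5 and 26.5 counts in WT and 69.5, 65.9 and 76.5 in the libraries labelled GαqKO. The lowest GαqKO value was more than 2 times the highest WT value, and the log2 fold change was 1.53 (SE 0.22, limma adjusted p = 3.66e-05). Ndufaf5, a factor that modifies Ndufs7, had 248, 249.7 and 230.0 counts in WT and 381, 368 and 398 in the libraries labelled GαqKO. Its values did not overlap, at a log2 fold change of 0.66 (SE 0.082, limma adjusted p = 8.4e-06). Ndufaf1, a factor for the membrane arm, was lower, at -0.31 (limma adjusted p = 0.00259). Ndufaf2, Ndufaf4, Ndufaf6, Ndufaf7 and Ndufaf8 were not called, with log2 fold changes from -0.28 to 0.22.

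In complex II the log2 fold changes lay between -0.16 and 0.15. Its flavin subunit Sdha had means of 942 ± 37.6 and 918 ± 20.8 counts and its iron-sulfur subunit Sdhb 333 ± 26.2 and 298 ± 29.4 (SD, n = 3 each). Neither was called, at log2 fold changes of -0.04 and -0.16. Of the membrane anchors, Sdhc had a log2 fold change of 0.10 and was not called, except without WT replicate 1 (0.174, limma adjusted p = 0.00818). Sdhd had 1494, 1459 and 1262 counts in WT and 1543, 1563 and 1555 in the libraries labelled GαqKO. Its call at a log2 fold change of 0.15 (limma adjusted p = 0.0443) was lost without WT replicate 3 (adjusted p = 0.199) or GαqKO replicate 1 (0.0834), 2 (0.0969) or 3 (0.0943).

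In complex III the falls were all in small accessory subunits. Uqcrh, the hinge protein beside cytochrome c1, had 227, 190.4 and 190.3 counts in WT and 144, 125 and 124 in the libraries labelled GαqKO. No GαqKO value reached the lowest WT value, and the log2 fold change was -0.63 (SE 0.12, limma adjusted p = 0.00044). Of the exon length of Uqcrh, 74.2% lies inside the span of Gm57150. Uqcr10 had 758, 697 and 640.2 counts in WT and 521, 515 and 493 in the libraries labelled GαqKO. Its values were also apart, at a log2 fold change of -0.45 (SE 0.070, limma adjusted p = 7.03e-05). Uqcr11 was lower, at -0.44 (limma adjusted p = 0.0256), a call lost without WT replicate 2 (adjusted p = 0.124) or GαqKO replicate 1 (0.1). Uqcrc2, a core protein of the matrix side, was the gene of complex III that rose, from 204 ± 29.7 to 281 ± 32.5 counts (SD, n = 3 each), with a log2 fold change of 0.47 (limma adjusted p = 0.00409). Its partner Uqcrc1 had a log2 fold change of 0.13, and Uqcrfs1, the Rieske iron-sulfur protein that hands electrons to cytochrome c1, one of 0.02 with means of 2393 ± 225 and 2412 ± 108 counts (SD, n = 3 each). Neither was called.

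Complex IV showed its largest difference in Cox4i1, the nuclear subunit that binds nucleotides and is among the first to join the mitochondrially encoded core. Cox4i1 (ENSMUSG00000031818.13; chromosome 8, 121391505 to 121400950 in GRCm39, plus strand) had 1120.4, 1127 and 973 counts in WT and 1753, 1568 and 1747 in the libraries labelled GαqKO. All GαqKO values lay far above the highest WT value. The means were 1073 ± 87.0 and 1689 ± 105 (SD, n = 3 each), with a log2 fold change of 0.66 (SE 0.066, limma adjusted p = 9.48e-07). Cox5a, which joins early with Cox4i1, was higher by 0.36 (limma adjusted p = 0.00832), with 209, 188 and 218 counts in WT and 233, 281 and 278 in the libraries labelled GαqKO. Cox6c was higher by 0.32 (limma adjusted p = 0.00339). Cox6b1, which joins the monomers of the dimer, was higher by 0.32 (limma adjusted p = 0.0468), a call lost without WT replicate 1 (adjusted p = 0.0573) or 2 (0.175), and without GαqKO replicate 1 or 2 (0.118 in both). Cox7b was lower, at -0.28 (limma adjusted p = 0.023), a call lost without WT replicate 2 (adjusted p = 0.105) or GαqKO replicate 1 (0.0916). Cox5b, the zinc-binding subunit, was not called, at a log2 fold change of -0.24.

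Complex IV subunits have forms restricted to muscle, testis, lung or hypoxic cells, and in these libraries most counts of each measured pair were on the common form. Cox4i2, the lung form whose gene responds to oxygen, had 1.0 to 8.5 counts in any library, at most 0.49% of its pair with Cox4i1 when counts were taken per kb of transcript. Cox6b2 and Cox7b2, known from testis, had 2.3 counts or fewer, at most 1.99% and 0.48% of their pairs with Cox6b1 and Cox7b. Ndufa4l2, a target of hypoxia-inducible factor, had 4.1 counts or fewer, at most 0.72% of its pair with Ndufa4. Cox7a1, the heart and muscle form, was the restricted form with the largest share of its pair. It had 9.4, 1.9 and 9.2 counts in WT and 5.6, 10.4 and 10.1 in the libraries labelled GαqKO, 2.33% to 12.53% of its pair with Cox7a2 per kb. The genotypes overlapped, and these 5 genes were under the filter and not tested. Cox6a2 and Cox8b, known from heart and skeletal muscle, and Cox8c, known from testis, were listed at 0 in all libraries. These zeros are given only as listed, since genes used by every cell were also at 0, and 100% of the exon length of Cox6a2 and 69.4% of that of Cox8b lie inside Itgad and Psmd13. Of the common forms, Cox6a1, Cox7a2, Cox8a and Ndufa4 were not called, at log2 fold changes of 0.00, -0.18, -0.13 and -0.01 (-0.005 before rounding). Cox8a was called lower without WT replicate 3 (-0.197, limma adjusted p = 0.00129) and when 10 counts were required in every library (adjusted p = 0.0398).

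The remaining genes listed at 0 were Ndufa13, Ndufb8 and Ndufb11b. Ndufa13 and Ndufb8 encode subunits that the complex needs in every cell, so their zeros are given only as listed. Of their exon length, 100% and 94.0% lies inside the spans of other genes, Tssk6 and Yjefn3 for Ndufa13 and Gm20538 for Ndufb8. Over all protein-coding genes, 62.4% of the 2087 with at least 90% of their exon length inside other genes were listed at 0, and 22.7% of the 13018 with no overlap. Ndufb11b and Cox8c overlap none. Atp5f1b lies wholly inside the span of Gm47438 and was among the most counted members all the same.

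Per kb of transcript, levels spanned a wide range within each complex. They divide the counts by the length of the canonical transcript and leave out counts on intronless copies. Such copies held 91.2% of the sum in WT for Atp5mc1 and 84.2% for Atp5pb. One exon made up most of some long transcripts, 3991 of the 4389 bases of Ndufb2. The part of annotated length, read placement and copies in these levels and medians was not tested. Cox8a had the highest level, with 4949 ± 439.7 normalized counts per kb in WT and 4507 ± 111 in the libraries labelled GαqKO (SD, n = 3 each). Atp5f1b followed with 3720.1 ± 207 and 3097 ± 118 (SD, n = 3 each). These ranks, the first and the second in both genotypes, were separated by more than the spread between libraries. The next place differed: in WT it was held by Atp5mc3 (2059.9 ± 175, and 1856 ± 56.4 in GαqKO) and in GαqKO by Cox4i1 (2158 ± 135, and 1371 ± 111 in WT). Ndufc2 (1637 ± 25.5 in WT, 1957 ± 59.9 in GαqKO) and Uqcrq (1712 ± 135 and 1761 ± 72.4) changed order between the genotypes. The medians by complex, over members in the test and all 6 libraries, were 187 counts per kb for complex I, 115 for its assembly factors, 408 for complex II, 203 for complex III, 281 for complex IV and 272.5 for ATP synthase. The lowest in the test was Atp5po, at 9.1 counts per kb, the gene whose copy held nearly all its counts. Of its exon length, 93.8% lies inside other spans.

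The other genes of the pathway moved in both directions too. Of 45 assembly factors outside the gene family rule, 40 were tested (limma), with 20 called upwards and 6 downwards. This is 65.0%, near the 65.8% of all genes tested. Atpaf1, a chaperone that binds the beta subunit while the head of ATP synthase is built, had 371, 402 and 399 counts in WT and 50.7, 25.4 and 58.4 in the libraries labelled GαqKO. The highest GαqKO value was far below the lowest WT value, and the log2 fold change was -3.18 (SE 0.23, limma adjusted p = 3.69e-08). Atpaf2, the chaperone of the alpha subunit, went the other way, at 0.50 (limma adjusted p = 4.2e-06). Coa3, which stabilizes newly made mitochondrial Cox1, had 428, 411 and 337 counts in WT and 1144, 1137 and 1109 in the libraries labelled GαqKO. The groups were far apart, at a log2 fold change of 1.53 (SE 0.081, limma adjusted p = 1.24e-09). Acad9, a complex I assembly factor, was higher by 0.88, and the complex IV factors Cox20, Cmc1 and Cmc2 by 0.87, 0.81 and 0.79. The complex III factor Uqcc3 was lower, at -0.77. The largest adjusted p of these 5 was 0.000782 (limma). Of the exon length of Cox20 and Cmc1, 97.9% and 85.0% lies inside the spans of other genes. Of the 22 complex IV factors, 19 were tested, 11 higher and 4 lower. Over all genes tested, 31.8% were higher and 34.1% lower. These factors are a part of the list above, and no test of direction was made over them. Cox16, Ecsit, Foxred1, Pet117 and Sco2 were listed at 0, each with 100% of its exon length inside other genes.

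Of 20 electron carriers and feeder enzymes, 17 were tested, 7 higher and 4 lower (64.7% called), and of 14 citric acid cycle enzymes all 14 were tested, 4 higher and 5 lower (64.3% called). Both shares were near the 65.8% of all genes tested. Coq6, a hydroxylase of ubiquinone synthesis, had 188, 182 and 173 counts in WT and 73.2, 80.9 and 105 in the libraries labelled GαqKO. Its values did not overlap, at a log2 fold change of -1.07 (SE 0.15, limma adjusted p = 2.11e-05). Coq8a, another factor of that synthesis, had 5.2, 10.7 and 10.2 counts in WT and 18.8, 27.7 and 31.2 in the libraries labelled GαqKO. Its levels were low throughout, at a log2 fold change of 1.498 (limma adjusted p = 0.00237, and 0.0902 in DESeq2 on 5 libraries). Coq9, Coq2 and Dhodh, the pyrimidine enzyme that feeds electrons to ubiquinone, were higher by 0.93, 0.78 and 0.83, and Coq3 and the glycerol phosphate dehydrogenase Gpd2 were lower, at -0.71 and -0.61. In the citric acid cycle, Suclg2, the GTP-forming beta subunit of succinyl-CoA ligase, had 142, 102 and 129 counts in WT and 387, 394 and 379 in the libraries labelled GαqKO. All GαqKO values were more than 2 times the highest WT value, a log2 fold change of 1.64 (SE 0.12, limma adjusted p = 3.61e-08). Its ATP-forming counterpart Sucla2 was lower, at -0.37 (limma adjusted p = 0.000825). Citrate synthase (Cs) and Ogdh, the first subunit of the oxoglutarate dehydrogenase complex, were lower, at -0.29 and -0.55, and Idh3b and Fh1 higher by 0.46 and 0.41.

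Of 17 regulators of respiratory gene expression and mitochondrial DNA, 16 were tested, 7 higher and 4 lower (68.8% called, beside 65.8% of all genes tested). Tfam, which packages and transcribes mitochondrial DNA, had 1099, 1097 and 1055 counts in WT and 809, 844 and 866 in the libraries labelled GαqKO. Each GαqKO value was below every WT value, at a log2 fold change of -0.37 (limma adjusted p = 3.06e-05). Gabpa, the DNA-binding subunit of the factor also called NRF2, was lower, at -0.24 (limma adjusted p = 0.000964), while Nrf1 (-0.02) and Esrra (-0.16) were not called. Ppargc1a, the coactivator PGC-1α, had 6.3, 10.7 and 22.4 counts in WT and 4.7, 8.1 and 3.0 in the libraries labelled GαqKO and was under the filter. Tfb2m, Tfb1m, Polg2 and Gabpb2 were higher by 0.86, 0.82, 0.77 and 0.58, and Ppargc1b by 0.44. Of the exon length of Tfb1m, 82.6% lies inside the spans of other genes. The call of Ppargc1b was lost without WT replicate 2 (adjusted p = 0.0666, limma) or GαqKO replicate 1 (0.104) and in DESeq2 (0.101), that of Tfb1m in DESeq2 (0.203), and Esrra was called without GαqKO replicate 3 (0.0259).

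The mitochondrially encoded subunits that were called were all higher in the libraries labelled GαqKO. Of the 13, 10 were tested, 6 higher and 0 lower (limma, 60.0% called beside 65.8% of all genes tested, of which 31.8% were higher), with a median log2 fold change of 0.30. mt-Co1, the catalytic subunit of complex IV, had 52918, 54417 and 49503 counts in WT and 84949, 87119 and 78438 in the libraries labelled GαqKO. Its values were well apart, at a log2 fold change of 0.68 (SE 0.054, limma adjusted p = 8.63e-08). mt-Nd5, mt-Nd4, mt-Nd6 and mt-Cytb were higher by 0.56, 0.52, 0.50 and 0.34. mt-Nd1 was not called, at 0.05. mt-Co2, mt-Co3 and mt-Atp6, which are made from the same long transcripts, had only 107.8 to 234 counts in any library, and mt-Atp8, mt-Nd3 and mt-Nd4l had 1.2 or fewer. No test of direction was made over the list.

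**Figure D5:**
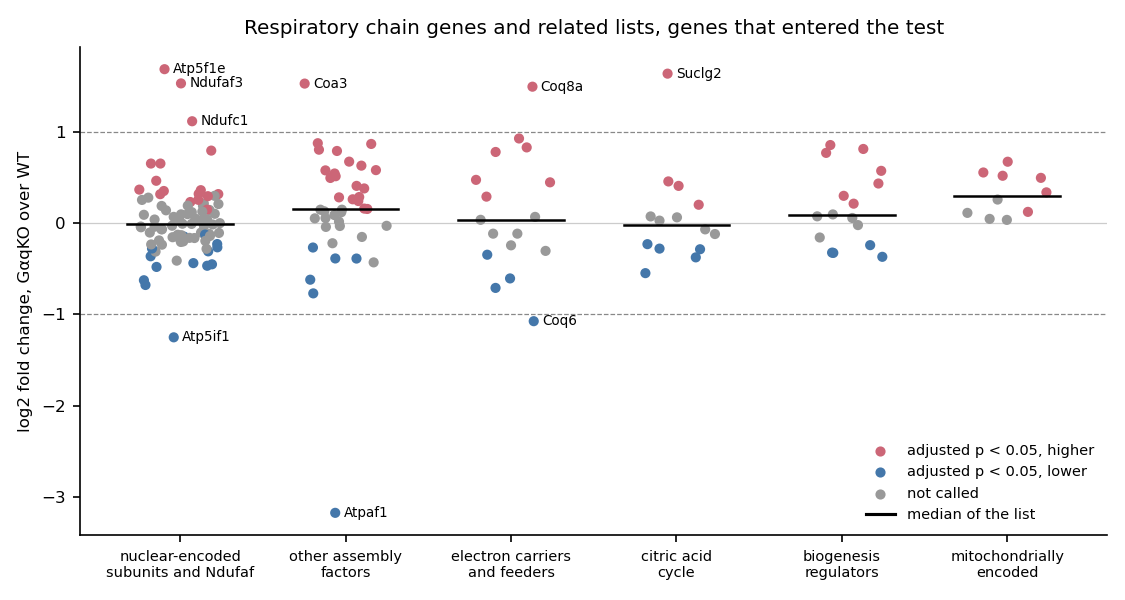
Log2 fold change (libraries labelled GαqKO over WT, y axis) of the respiratory chain genes and of 5 related lists, for genes that entered the test; points are single genes, black lines are medians and dashed lines mark 1 and -1. Medians lie between -0.02 (citric acid cycle) and 0.30 (mitochondrially encoded subunits), and Atpaf1 lies lowest, at -3.18.

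Promoters of respiratory genes are known for sites of NRF1, of ETS factors such as GABPA, and of YY1, and windows of 250 bases before to 50 after the annotated start were searched on both strands. The NRF1 motif, a palindromic GC-rich sequence, was present in 14.9% of the 87 promoters of genes in the test, 9.4% of the promoters of 11791 tested protein-coding genes and 5.8% of all 21651 protein-coding promoters. It was in 2 of the 17 promoters of genes called higher, 0 of the 14 called lower and 11 of the 56 not called. CCGGAAG (ETS) was present in 18.4% of the 87, beside 15.7% of tested and 10.3% of all protein-coding genes, with 3 of 17, 3 of 14 and 10 of 56. The YY1 motif was in 2.3% and CACGTG (the E-box) in 8.0% of the 87, beside 0.9% and 10.0% of the tested genes. A match here is a description of the letters and not a site. The 150 bases before the start of the canonical transcript of Atp5f1e and Atp5if1, the ATP synthase genes that differed most in opposite directions, are shown in GRCm39 (chr2:174305907-174306056 and chr4:132260978-132261127, both minus strand). For Atp5if1 this start lies inside the span of the gene given above, whose outer end belongs to another transcript. The capitals mark the only match to the 4 motifs in these stretches, ETS letters on the other strand that begin 90 bases before the start of Atp5f1e.
Atp5f1e: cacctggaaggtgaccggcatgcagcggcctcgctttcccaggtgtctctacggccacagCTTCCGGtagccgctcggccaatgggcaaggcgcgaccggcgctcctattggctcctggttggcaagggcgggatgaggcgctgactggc
Atp5if1: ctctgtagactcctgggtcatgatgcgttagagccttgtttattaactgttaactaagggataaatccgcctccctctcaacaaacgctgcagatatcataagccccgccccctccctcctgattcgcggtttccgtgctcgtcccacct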

How the data were processed

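RNA of 3 WT and 3 GαqKO MEF libraries was prepared with a stranded mRNA kit and sequenced as paired ends. Per the labels and the study's methods, the authors used Rbowtie2, an aligner that does not split reads over introns, on GRCm39, then featureCounts with the genes of GENCODE release 32, and DESeq2 for normalization. The deposited values are a signal per gene, the normalized counts, and no versions or strand setting are given in the sources used here. Symbols and positions came from GENCODE release 39 of the same build (56310 of 56953 identifiers matched).

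The test was limma with group as the single term and a mean-dependent prior spread, on log2(value + 1), for the 14096 genes that reached 10 normalized counts in 3 or more libraries, with Benjamini-Hochberg adjustment. Fold changes on this scale understate those of low genes. Values above 0 were whole multiples of 1 read in 5 libraries (100.0% of them, tolerance 0.05 reads), giving 9853000 to 12229175 reads per library, and edgeR and DESeq2 were run on these as alternatives. The reads of GαqKO replicate 3 were not used in this way. Genes whose libraries hold 3 counts or fewer were treated as at the floor, which covers counting error only. Exon overlap was taken over the canonical transcript, against the spans of other genes in the table. Copies were found with BLAST 2.17.0. The scripts were tested on simulated data.

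The genes and lists were chosen with earlier results of these data known, so no count over them is independent support. Named genes were Gnaq and Gna11, members past both thresholds, the 3 largest rises and falls called per complex, the tissue forms, fixed catalytic subunits, members at 0 or under the filter, and in each related list the genes past both thresholds, up to 5 more by size and 5 fixed regulators. Atp5f1d, Atp5mc2, Atp5mc3, Atp5po, the membrane part of ATP synthase, Ndufab1, Ndufc2, Uqcrq, the other Ndufaf genes, Atpaf2, list genes at 0 and the further mitochondrially encoded genes were added after their values were seen. The values of 1 gene of the fixed list are not reported here. Python 3.11.15 (numpy 2.4.6, pandas 2.3.3, matplotlib 3.10.9) and R 4.3.3 (limma 3.58.1, edgeR 4.0.16, DESeq2 1.42.0) were used.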

Additional observations from a re-analysis of the deposited data

How the results depend on the processing

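The log2 fold changes of 86 named genes were recomputed under each alternative, and 1324 of 1416 values kept their direction and their side of the threshold. Atp5f1e, Ndufaf3, Ndufc1, Atp5if1, Ndufb5, Cox4i1, Ndufs3, Uqcrh and Uqcr10 were called under every alternative that included them. The 26 values that changed sign were all of genes that were not called: Ndufa4 with TMM scaling (0.004), in edgeR (0.023) and in DESeq2 (0.017), Cox6a1 in edgeR (-0.023), in DESeq2 (-0.031) and with the copies added (-0.003), Uqcrfs1 in DESeq2 (-0.002), and others when a library was left out. With 1 library left out, the values ran from -0.09 to 0.068 for Ndufa4, -0.052 to 0.035 for Ndufv1, -0.000147 to 0.152 for Ndufv2, -0.187 to 0.22 for Atp5po, -0.049 to 0.045 for Cox6a1, -0.036 to 0.136 for Ndufs8, -0.05 to 0.085 for Uqcrfs1, -0.019 to 0.095 for Uqcrq and -0.068 to 0.013 for Nrf1. The medians ran from 0.034 to 0.131 for complex I, -0.181 to -0.03 for complex III and -0.09 to 0.068 for complex IV, the called genes from 0 to 2 higher in complex II and from 0 to 2 lower in complex IV, and over all complexes from 14 to 18 higher and 10 to 17 lower. Requiring 10 counts in every library gave 2 lower in complex IV. Without a filter, with no trend and in edgeR, 0 genes of complex II were higher. DESeq2 on 5 libraries called 11 higher and 9 lower, with 0 lower among the assembly factors, 0 higher in complex II, and 1 higher and 0 lower in complex IV. Keeping only genes with under 50% of their exon length inside other spans left 0 genes lower past both thresholds, since Atp5if1 drops out, and a median of 0.015 for complex III. The copies were added as an alternative chosen after seeing the data. Causes of the other changes were not tested.

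No shared deviation was seen between libraries with the same replicate number. Their deviations from the group mean correlated at -0.045, -0.148 and -0.064, and those of libraries with unlike numbers at -0.075 to 0.125. With 3 libraries per genotype these values cannot decide whether the samples were handled in pairs. With the replicate number as a block, 15 genes were higher and 13 lower in place of 17 and 14, and 0 were higher in complex II. Depth limits the genes at low counts most: the standard error of the log2 fold change was 0.43 for the second Atp5po row and 0.046 for Atp5f1a.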
